A study of Mus musculus with 8 samples.

Results

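Cells meet oxidised membrane lipids with enzymes that reduce lipid peroxides and with enzymes that dispose of the aldehydes those peroxides break down into. 10 mouse genes of this kind were chosen by symbol: Acsl4, Lpcat3, Gpx4, Aifm2, Akr1a1, Akr1b3, Akr1b8, Aldh2, Aldh3a1 and Aldh3a2. Of these, 9 had a probe set annotated to a single gene symbol and were described, out of 22180 genes measured in the same way. Akr1b3, which encodes aldose reductase, had no such probe set in the annotation used and was not analysed here. The data came from 8 whole-transcript arrays of cultured mouse melanocytes in 4 groups of 2, stated to be biological duplicates. WT cells carried floxed Atg7 alleles (Atg7 f/f). KO cells carried the same floxed alleles and in addition Cre recombinase under the tyrosinase promoter (Atg7 f/f Tyr::Cre). All groups thus share the floxed alleles. Cre is expected to act in pigment cells, and whether it acted in other cells of the culture was not tested. Atg7 encodes an enzyme needed to attach LC3 to lipid during autophagy. Each genotype was exposed to 20 J/cm2 of UVA-1 (long-wave ultraviolet A) or handled as sham, and RNA was isolated 6 h afterwards. The cells came from pups 1 to 5 days old, were labelled female, and had been in MGM-2 medium for 22 days. The arrays of each group were numbered 1 and 2. What the numbers denote, and whether pups were pooled, is not in the labels, so p-values measure the spread between these samples.

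Polyunsaturated fatty acids in membrane phospholipids are readily oxidised to hydroperoxides. ACSL4 joins such fatty acids to coenzyme A and LPCAT3 places them into phospholipids, which sets how much oxidisable lipid a membrane holds. GPX4 reduces phospholipid hydroperoxides with glutathione, and AIFM2 (also called FSP1) keeps ubiquinone in its reduced, radical-trapping form without needing glutathione. Loss of GPX4 can lead to ferroptosis, an iron-dependent cell death. Hydroperoxides that escape decay into reactive aldehydes such as 4-hydroxynonenal, which aldo-keto reductases (AKR) reduce to alcohols and aldehyde dehydrogenases (ALDH) oxidise to acids. UVA is a known source of lipid peroxidation in skin, and melanocytes also carry the oxidative load of melanin synthesis.

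Promoter sequences are shown for Akr1b8, the gene with the largest KO minus WT difference among the 9, and for Lpcat3, which had lower values after UVA in every pair of arrays. Each is the 250 bases before the RefSeq start of the gene in GRCm38.p6, on the plus strand, at chr6:34353896-34354145 for Akr1b8 and at chr6:124662854-124663103 for Lpcat3. Capitals mark matches to the GC box letters GGGCGG on either strand, the core bound by SP1-type factors.
Akr1b8: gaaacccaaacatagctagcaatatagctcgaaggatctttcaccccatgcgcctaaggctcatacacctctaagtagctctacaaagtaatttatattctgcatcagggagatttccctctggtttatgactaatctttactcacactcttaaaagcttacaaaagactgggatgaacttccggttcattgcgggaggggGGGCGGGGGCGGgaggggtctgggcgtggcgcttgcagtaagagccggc
Lpcat3: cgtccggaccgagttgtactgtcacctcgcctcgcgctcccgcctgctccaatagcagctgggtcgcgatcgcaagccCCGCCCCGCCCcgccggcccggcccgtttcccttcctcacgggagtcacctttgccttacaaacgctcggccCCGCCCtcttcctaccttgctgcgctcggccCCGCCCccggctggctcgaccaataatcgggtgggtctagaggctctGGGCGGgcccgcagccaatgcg
The GC box letters matched 2 times in the Akr1b8 sequence and 5 times in that of Lpcat3, with matches allowed to overlap. The RefSeq table held 10 promoters for 7 of the genes, of which 4 belong to Gpx4 and overlap in part. A GC box match was found in 7 of the 10 promoters, from 5 genes, and in 32.7% of all 32851 promoters of this length. The antioxidant response element core TGACNNNGC, the motif of NRF2, matched in none of the 10 and in 10.2% of all promoters. The AP-1 letters TGANTCA matched in none of the 10 and in 6.75% of all promoters. A match describes letters in this window only.

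Arrays with the same number resembled each other. Across genes, the deviations of same-numbered arrays from their group means had correlations of 0.799 to 0.916 in the 6 pairs of groups, so each comparison was also fitted with the number as a block. Atg7, the targeted gene, read 989, 1004, 859 and 832 in the WT arrays and 831, 804, 598 and 602 in the KO arrays, a difference of -0.39 (limma adjusted p = 1 without and 0.297 with the block). Whether its probes lie in the deleted part is not given in the sources used here. Sqstm1, the cargo receptor p62 that autophagy degrades, was 0.13 higher in KO (adjusted p = 1 and 0.477). The 12 melanocyte markers were above the array medians in all arrays, with Tyrp1 at 13781 to 17718 on the linear intensity scale. The 11 measured fibroblast markers were above them too, the lowest value being 187 for Lum. In the number 1 arrays the mean log2 value was 11.37 to 11.50 for melanocyte markers and 11.76 to 11.90 for fibroblast markers. Melanocyte markers summed to 57928 to 62035 in the number 1 arrays and to 89927 to 105061 in the number 2 arrays. The summed intensity of 11 fibroblast markers was 51870 to 54932 in the number 1 arrays, 9224 and 10628 in the WT arrays of number 2, and 21053 and 22759 in the KO arrays of number 2. The median KO minus WT difference of these markers was -0.047 in number 1 and 1.18 in number 2 on the log2 scale. Melanocyte markers had medians of 0.035 and -0.34 for the same differences, and 6 Schwann cell markers had 0.31 and 0.17. The Schwann cell markers summed to 2525 and 2284 in WT and 3610 and 3305 in KO arrays of number 1, and to 6501 to 6650 in number 2. Myeloid markers summed to 1088 to 1263 in number 1, and to 1413 and 1338 in WT and 2691 and 2449 in KO arrays of number 2. The median KO minus WT difference of the 8 myeloid markers was only -0.075 in number 1 and 0.032 in number 2. Lyz2 had by far the widest range of them, 259 to 1717, while Ptprc read 29 to 34. Markers of keratinocytes, mast cells and endothelial cells summed to 1260 to 1597, 151 to 163 and 1051 to 1763 over all arrays. The part of cell makeup in the differences below was not tested beyond the values given. In bulk RNA fewer cells of a type and less RNA per cell cannot be told apart.

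None of the 9 genes passed an adjusted p of 0.05 in any of the 7 comparisons, whether or not the replicate number was blocked. All genes together gave the same count without the block, with 0% of the 22180 genes called in each comparison by limma. With the block limma called 0.0316% of all genes for KO against WT averaged over treatments, 0.0135% for UVA against sham averaged over genotypes, 0.00451% for UVA in WT and 0.00902% for UVA in KO, and none for the other 3 comparisons. A count of 0 among 9 genes is therefore near the background. At an unadjusted limma p under 0.05 none of the 9 was found without the block, where the share of all genes was 2.33% for KO against WT averaged, 2.01% after sham, 1.59% after UVA, 1.81% for UVA averaged, 1.54% in WT, 1.57% in KO and 1.33% for the interaction (517, 446, 352, 401, 342, 348 and 294 genes). With the block 1 of the 9 was found for the averaged genotype comparison, against 8.88% of all genes, 1 for KO against WT after sham, against 5.55%, and 1 for the averaged UVA comparison, against 6.54%. None was found after UVA (4.18% of all genes), for UVA in WT (3.94%) or in KO (4.02%), or for the interaction (2.06%). A count of 1 of 9 is close to these shares.

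**Figure D1:**
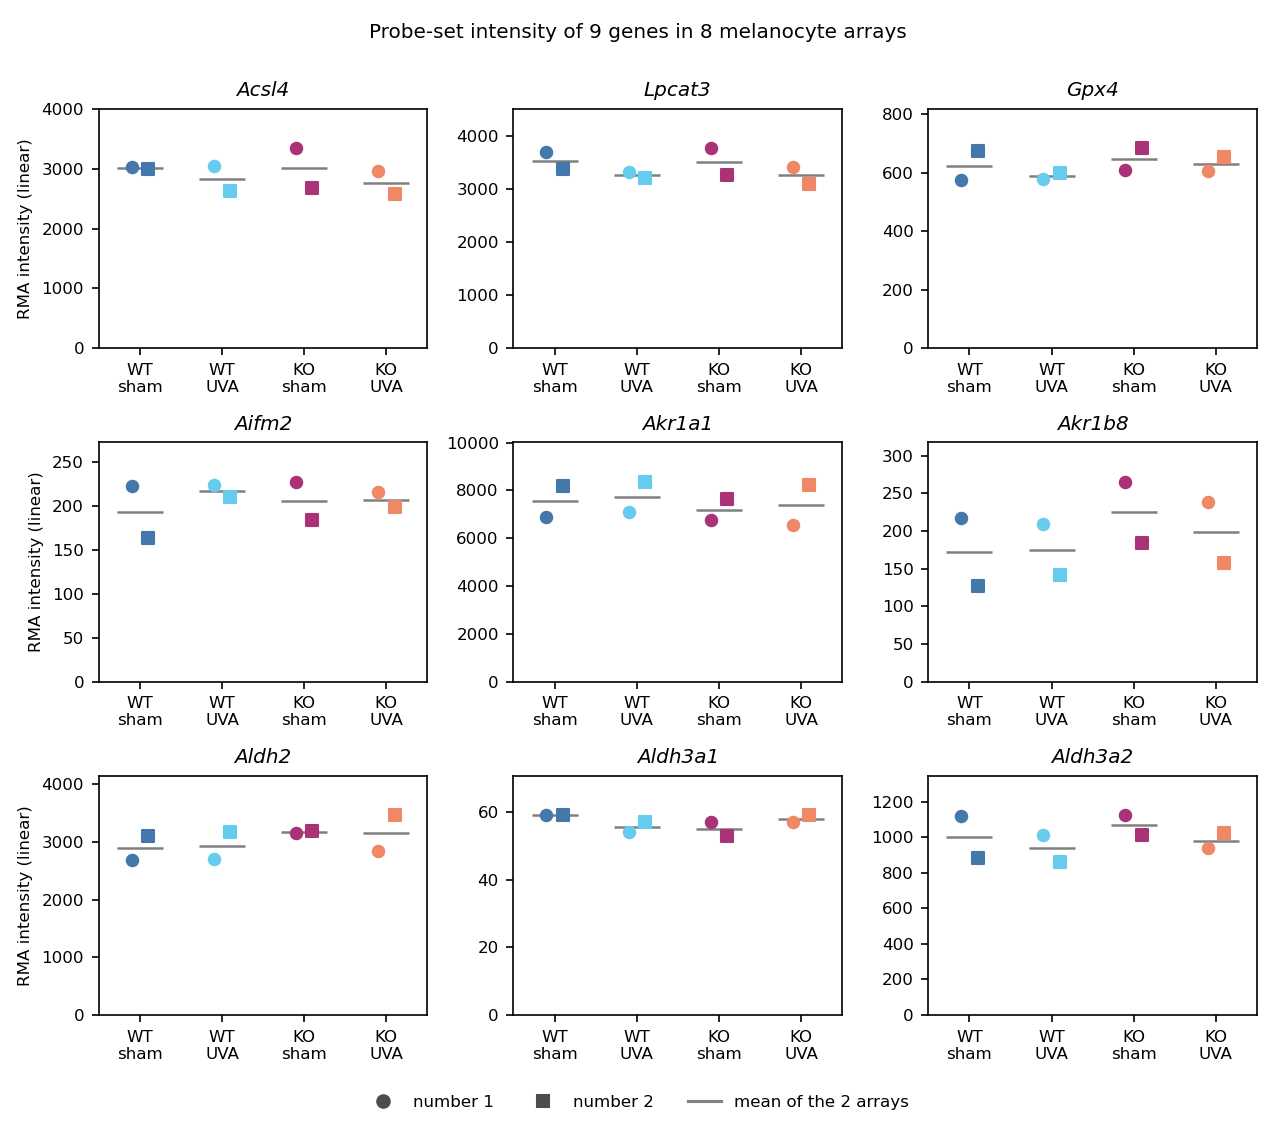
RMA intensity on a linear axis starting at 0 for each of the 9 genes, with 1 point per array, placed by genotype and treatment, point shape for the replicate number and a bar for the mean of the 2 arrays. Akr1b8 is higher in the number 1 arrays (209 to 265) than in the number 2 arrays (127 to 184), and within each number the KO arrays are the higher ones.

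Averaged over treatments, the 2 enzymes that load polyunsaturated fatty acids into membranes differed between WT and KO cells by less than 0.1 on the log2 scale. Acsl4 read 3039 and 3007 in WT sham arrays, 3047 and 2631 in WT UVA arrays, 3347 and 2690 in KO sham arrays and 2967 and 2584 in KO UVA arrays, number 1 first as in all lists below. The groups overlapped, and the number 1 array was the higher in every group. KO differed from WT by -0.021 on the log2 scale, with an SE of 0.11 without the block and 0.060 with it, and a blocked 95% interval of -0.16 to 0.12 (limma adjusted p = 1 without and 0.938 with the block). The 4 differences between KO and WT arrays of 1 number and treatment had mixed signs, at 0.14 and -0.16 after sham and -0.038 and -0.026 after UVA.

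Lpcat3 read 3687 and 3370 in WT sham arrays, 3315 and 3194 in WT UVA arrays, 3757 and 3264 in KO sham arrays and 3414 and 3086 in KO UVA arrays. The genotypes overlapped, whereas in each culture, here a combination of genotype and number, the UVA array was the lower one. That the sham and UVA arrays of such a combination came from 1 culture is assumed and is not in the labels. KO minus WT was -0.0065 (SE 0.085 without and 0.047 with the block) with a blocked interval of -0.12 to 0.11. UVA minus sham was -0.15 and -0.077 in the WT cultures and -0.14 and -0.081 in the KO cultures. The averaged difference was -0.11 with a blocked SE of 0.047, a fold of 0.925, and a blocked interval of -0.22 to -0.00025. Its limma p was 0.0496 with the block, adjusted p = 0.762, and 1 without the block. With each culture (a combination of genotype and number) as its own block the p was 0.0164 and the adjusted p 0.257. With 1 array left out the difference was -0.16 to -0.062. Lpcat3 was lower after UVA in 4 of 4 pairs by a small amount that missed the threshold, and 9.08% of all genes were lower in all 4 pairs.

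Averaged over treatments, the enzymes that act on peroxides and on lipid radicals had genotype differences under 0.1 on the log2 scale. Gpx4, which encodes the selenium-containing peroxidase that reduces phospholipid hydroperoxides, read 574 and 675 in WT sham arrays, 580 and 600 in WT UVA arrays, 608 and 683 in KO sham arrays and 606 and 655 in KO UVA arrays. Each KO array was above the WT array of its number and treatment, while over both numbers the ranges of WT (574 to 675) and KO (606 to 683) overlapped. The pair differences were 0.083 and 0.017 after sham and 0.063 and 0.13 after UVA. Their mean was 0.072 (SE 0.10 without and 0.064 with the block), with a blocked interval of -0.080 to 0.22 and limma adjusted p = 1 and 0.762. The mean difference was 0.073 in number 1 and 0.072 in number 2, and leaving out 1 array moved the average to between 0.014 and 0.13.

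Aifm2, the gene of the ubiquinone reductase FSP1, read 222 and 163 in WT sham arrays, 224 and 210 in WT UVA arrays, 227 and 184 in KO sham arrays and 215 and 198 in KO UVA arrays. The lowest value was the number 2 array of WT sham, and the genotypes overlapped. KO was above WT in both sham pairs, by 0.032 and 0.17, and below it in both UVA pairs, at -0.059 and -0.085. The averaged difference of 0.016 (SE 0.13 without and 0.086 with the block) had a blocked interval of -0.19 to 0.22 and limma adjusted p = 1 and 0.971. UVA minus sham averaged 0.10 with a blocked adjusted p of 0.893, most of it from the number 2 pair of WT, where the difference was 0.37.

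Among the aldo-keto reductases, which reduce aldehydes with NADPH, Akr1a1 and Akr1b8 gave different pictures. Akr1a1, the broad aldehyde reductase, read 6882 and 8199 in WT sham arrays, 7073 and 8351 in WT UVA arrays, 6745 and 7648 in KO sham arrays and 6545 and 8207 in KO UVA arrays. The number 2 arrays were all above the number 1 arrays, and each KO array was below the WT array of its number and treatment. The pair differences were -0.029 and -0.10 after sham and -0.11 and -0.025 after UVA. The average of -0.067 (SE 0.11 without and 0.041 with the block) had a blocked interval of -0.16 to 0.030 and did not pass the test (limma adjusted p = 1 and 0.659).

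Akr1b8, a member of the family that also holds aldose reductase, had the largest genotype difference of the 9. Its values, 127 to 265, stood against array medians of 110 to 115 over all probe sets, and the lowest were close to these. It read 217 and 127 in WT sham arrays, 209 and 141 in WT UVA arrays, 265 and 184 in KO sham arrays and 239 and 158 in KO UVA arrays. In number 1 both KO arrays were above both WT arrays, and likewise in number 2, but the numbers themselves were further apart than the genotypes. The log2 group means (± SD, n = 2 each) were 7.38 ± 0.55 for WT after sham, 7.42 ± 0.40 for WT after UVA, 7.79 ± 0.37 for KO after sham and 7.60 ± 0.42 for KO after UVA. The pair differences were 0.29 and 0.53 after sham and 0.19 and 0.16 after UVA.

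Averaged over treatments, Akr1b8 was 0.30 higher in KO on the log2 scale, or 1.23-fold. Without the block the SE was 0.26, the interval -0.35 to 0.94 and the limma adjusted p 1. With the block the SE was 0.076, the interval 0.12 to 0.47, the unadjusted p 0.00595 and the adjusted p 0.452. The gene ranked 290 of 22180 by that p and 1320 by the size of its difference. With both arrays of a culture averaged to 1 value, the blocked SE was 0.099, the p 0.0378 and the limma adjusted p 0.996. The difference did not pass the threshold under any of these fits. After sham it was 0.41 (1.33-fold, blocked interval 0.16 to 0.66, limma adjusted p = 0.845) and after UVA 0.18 (1.13-fold, blocked interval -0.074 to 0.43, adjusted p = 0.957).

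Number 2 minus number 1 was -0.62 for Akr1b8 and had a median of -1.73 for the fibroblast markers. The KO minus WT difference was 0.24 in number 1, where the fibroblast markers had a median difference of -0.047, and 0.35 in number 2, where they had 1.18. The Schwann cell markers had median differences of 0.31 and 0.17 in the same numbers. The part of these cell types in the Akr1b8 values was not tested. Leaving out 1 array moved the average to between 0.10 and 0.49, or 0.24 and 0.35 with the block.

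**Figure D2:**
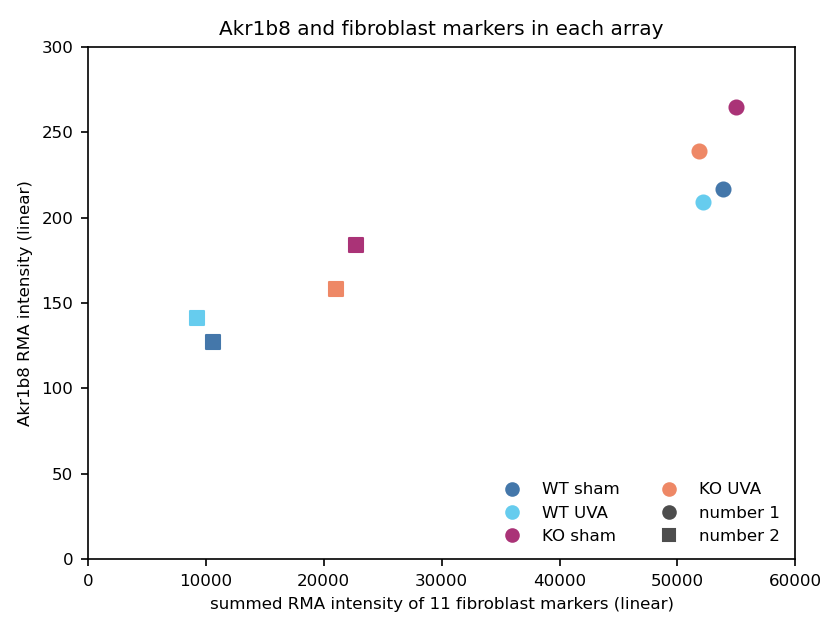
Akr1b8 intensity (linear) against the summed intensity of 11 fibroblast markers (linear), 1 point per array, colour for the group and shape for the replicate number. The number 1 arrays sit together at 51870 to 54932 on the marker axis with KO (265 and 239) above WT (217 and 209), and the number 2 arrays sit lower on both axes.

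In the RefSeq gene order Akr1b3, Akr1b8, Akr1b10 and Akr1b7 are neighbours. They are related in sequence, and how far their probes read each other's transcripts was not given in the sources used here. The probe set of Akr1b10 read 496 and 888 in WT sham arrays, 465 and 907 in WT UVA arrays, 606 and 964 in KO sham arrays and 527 and 1075 in KO UVA arrays. Here number 2 was the higher number, unlike in Akr1b8. KO was above WT in 4 of 4 pairs, by 0.21 on average (0.23 in number 1 and 0.18 in number 2), with a blocked limma p of 0.0318 and adjusted p of 0.547.

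The aldehyde dehydrogenases, which oxidise aldehydes to acids with NAD or NADP, showed no called difference either. Aldh2, the mitochondrial enzyme that clears acetaldehyde and 4-hydroxynonenal, read 2679 and 3094 in WT sham arrays, 2703 and 3163 in WT UVA arrays, 3152 and 3188 in KO sham arrays and 2843 and 3459 in KO UVA arrays. Each KO array was above the WT array of its number and treatment, and the genotypes overlapped across numbers. The pair differences were 0.23 and 0.043 after sham and 0.073 and 0.13 after UVA. The average of 0.12, or 1.09-fold (SE 0.11 without and 0.058 with the block), had a blocked interval of -0.018 to 0.26 (limma adjusted p = 1 and 0.593). It ranged from 0.049 to 0.19 with 1 array left out. A dimmer probe set of Aldh2, with intensities of 140 to 173, gave -0.075 for the same difference, so the probe sets disagreed in sign.

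Aldh3a2 encodes the fatty aldehyde dehydrogenase of the endoplasmic reticulum, whose loss in people causes Sjögren-Larsson syndrome. It read 1122 and 886 in WT sham arrays, 1013 and 861 in WT UVA arrays, 1123 and 1015 in KO sham arrays and 937 and 1023 in KO UVA arrays. The groups overlapped, and the pair differences were 0.0013 and 0.20 after sham and -0.11 and 0.25 after UVA. The average was 0.083 (SE 0.12 without and 0.086 with the block) with a blocked interval of -0.12 to 0.29 (limma adjusted p = 1 and 0.801). It came from number 2, at 0.22, and not from number 1, at -0.056. A dimmer probe set of the gene (122 to 139) gave 0.082 in number 1 and 0.071 in number 2.

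Aldh3a1, the cytosolic enzyme known for its abundance in the cornea, read between 53 and 59 in all 8 arrays. The array medians over all probe sets were 110 to 115, so this probe set was among the dimmer ones. At such values a step of 1 intensity unit is a visible part of any difference, since the deposited values are whole numbers. KO minus WT was -0.019 (SE 0.058 without and 0.073 with the block), with a blocked interval of -0.19 to 0.15 and limma adjusted p = 1 and 0.956.

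Read as a group, the 9 genes had genotype differences of about the size seen over all genes. For KO against WT averaged over treatments 5 differences were positive and 4 negative, with a median of 0.016 against -0.0098 over all genes. The median size of the difference, sign aside, was 0.067 among the 9 and 0.073 over all genes. KO was higher than WT in all 4 pairs for 3 genes, Gpx4, Akr1b8 and Aldh2, where 7.65% of all genes were so, and lower in all 4 pairs for Akr1a1, where 7.78% were so. For none of the 9 did the 4 KO and 4 WT arrays separate without overlap, which they did for 1.81% of all genes. Apart from Akr1b8, the blocked 95% intervals reached no further than 0.29 above or 0.19 below zero.

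**Figure D3:**
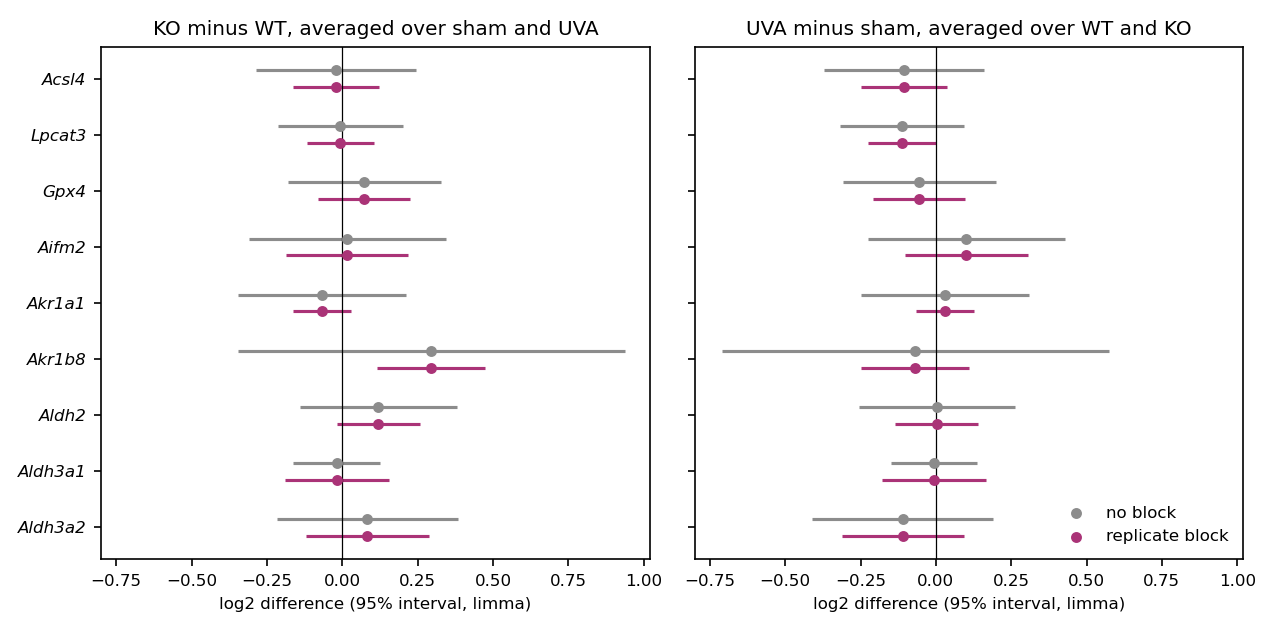
Log2 difference of KO minus WT (left) and UVA minus sham (right) for the 9 genes, with 95% intervals from limma, unblocked and blocked on the replicate number. With the block the intervals narrow, and those of Akr1b8 on the left (0.12 to 0.47) and Lpcat3 on the right (-0.22 to -0.00025) lie to 1 side of zero, while neither gene passed the adjusted threshold.

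The differences of the 9 genes 6 h after UVA-1 were also of about the size seen over all genes. Averaged over genotypes 3 differences were positive and 6 negative, with a median of -0.055 against 0.0023 over all genes, and a median size of 0.068 against 0.066. Lpcat3 (-0.11, above), Acsl4 (-0.11, blocked interval -0.25 to 0.038) and Aldh3a2 (-0.11, blocked interval -0.31 to 0.093) had the lowest values, with blocked limma adjusted p of 0.762, 0.843 and 0.883. Gpx4 stood at -0.055 (adjusted p = 0.927), Akr1b8 at -0.068 (0.923), Akr1a1 at 0.031 (0.938), Aldh2 at 0.0034 (1.00) and Aldh3a1 at -0.0057 (0.997), all from the blocked limma fit. No gene of the 9 was higher after UVA in all 4 pairs, where 10.6% of all genes were. The UVA and sham arrays of the 9 genes overlapped in every case, where 1.83% of all genes separated. With each culture as a block limma called 0.437% of all genes for this comparison and none of the 9.

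In the WT cultures alone, UVA minus sham ranged from -0.12 for Lpcat3 to 0.19 for Aifm2. In the KO cultures it ranged from -0.18 for Akr1b8 to 0.077 for Aldh3a1. All limma adjusted p-values of the 9 genes were 1 in these comparisons, with and without the replicate block. The test of whether the UVA response differed between genotypes gave interactions from -0.23 for Akr1b8 to 0.17 for Aldh3a1, with a median of -0.021 against -0.0087 over all genes. Every limma adjusted p of the 9 genes in the interaction was 1. For Akr1b8 the blocked interval of the interaction was -0.59 to 0.13, so the data do not show a smaller genotype difference after UVA than after sham.

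**Figure D4:**
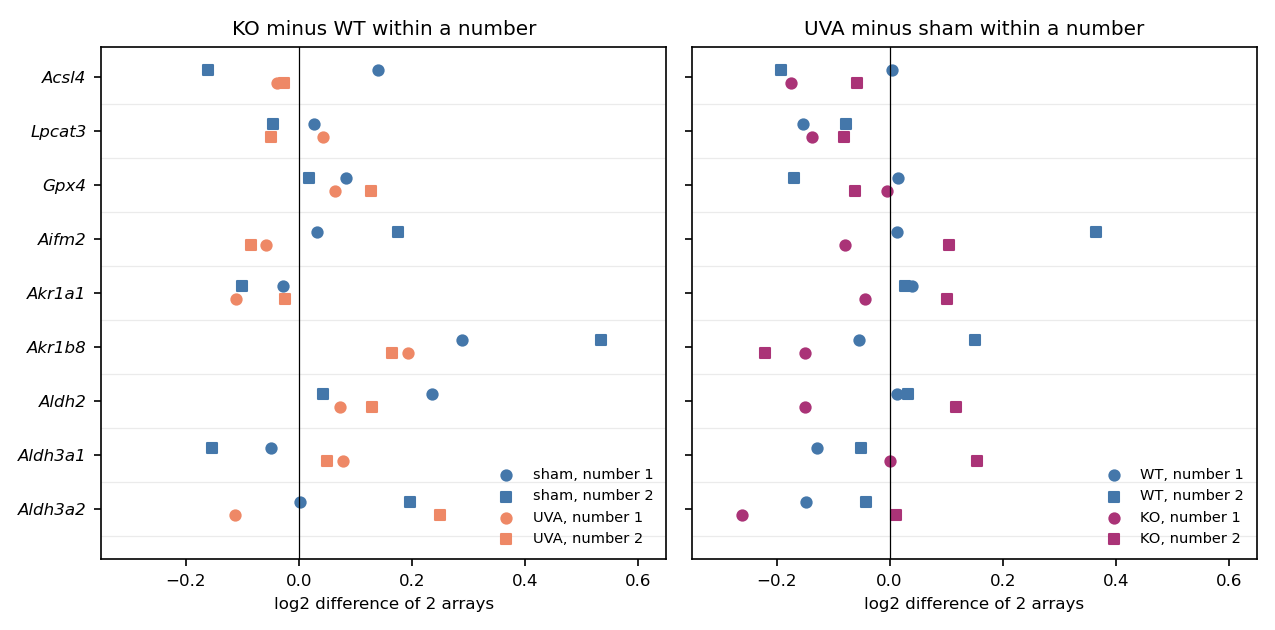
Differences of single array pairs of 1 number on the log2 scale: KO minus WT after sham and after UVA (left) and UVA minus sham in WT and in KO (right), with point shape for the replicate number. Gpx4, Akr1b8 and Aldh2 have all 4 points above zero on the left, Akr1a1 has all 4 below, and Lpcat3 has all 4 below zero on the right.

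For 8 of the 9 genes the replicate numbers differed by more than the genotypes or the treatments did. Number 2 minus number 1 was -0.62 for Akr1b8, 0.25 for Akr1a1, -0.24 for Aifm2, -0.19 for Acsl4, 0.18 for Aldh2, -0.15 for Aldh3a2, 0.14 for Gpx4, -0.13 for Lpcat3 and 0.0057 for Aldh3a1. The arrays of the numbers separated without overlap for 3 of the 9 genes, Aifm2, Akr1a1 and Akr1b8, and for 32.1% of all genes.

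Other genes, listed here for clearing reactive carbonyls or related compounds, included some with larger genotype differences than any of the 9. This list held alcohol dehydrogenases, carbonyl and quinone reductases, a glutathione transferase, glyoxalases and epoxide hydrolases, among others, and 14 of its 15 genes were measured. Not all of them are enzymes of lipid aldehydes, Nqo1 being a quinone reductase. KO minus WT was positive for 12 and negative for 2, with a median of 0.19 against -0.0098 over all genes. With the block limma called 2 of 14 higher and 0 lower, against 0.0316% of all genes. This list and those below were chosen with earlier results of these data known, so their counts do not test such genes as a set. Adh7, an alcohol dehydrogenase that acts on retinol, read 555 and 2329 in WT sham arrays, 933 and 3896 in WT UVA arrays, 2010 and 5934 in KO sham arrays and 2985 and 8186 in KO UVA arrays. Within each number both KO arrays were above both WT arrays. Adh7 was 1.49 higher in KO (SE 0.12, 2.81-fold, blocked limma adjusted p = 0.0189), at 1.77 in number 1 and 1.21 in number 2.

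Nqo1, the quinone reductase regarded as a standard NRF2 target, read 636 and 979 in WT sham arrays, 1058 and 1695 in WT UVA arrays, 1382 and 2657 in KO sham arrays and 1810 and 3907 in KO UVA arrays. Within each number both KO arrays were above both WT arrays here too. Nqo1 was 1.13 higher in KO (SE 0.091, 2.20-fold, blocked limma adjusted p = 0.0189), at 0.95 in number 1 and 1.32 in number 2. The median difference of the fibroblast markers was -0.047 and 1.18 in the same numbers. Both calls were absent without the block (adjusted p = 1), and leaving out any 1 of the 8 arrays or averaging the arrays of a culture left 0 genes called in this comparison over all genes. With the block and 1 array left out, the adjusted p was 0.108 to 0.420 for Adh7 and 0.106 to 0.532 for Nqo1. Gsta4, the glutathione transferase with high activity toward 4-hydroxynonenal, had 0.50 (0.33 in number 1 and 0.68 in number 2) and a blocked adjusted p of 0.548. Park7, Adh5 and Ptgr2 had the lowest differences of the list, at 0.0063, -0.0085 and -0.072.

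The genes of the carbonyl-clearing list also had UVA minus sham differences that were mostly positive, 10 of 14. Their median was 0.084 against 0.0023 over all genes. With the replicate block none was called. With each culture as a block limma called 3 higher, Adh7 at 0.63 (adjusted p = 0.00150), Nqo1 at 0.62 (0.00383) and Cbr3 at 0.48 (0.0481), and 0 lower. That fit called 0.437% of all genes.

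Other genes of ferroptosis and lipid peroxidation were measured for 34 of 40 listed. For KO against WT 16 were positive and 18 negative, with a median of -0.0074, and none was called. Ptgs2, the cyclooxygenase often read as a ferroptosis marker, had 0.79, which was -0.040 in number 1 and 1.61 in number 2. Chac1, a glutathione-degrading enzyme, had 0.43 with the same split, -0.054 and 0.92. In number 2 the fibroblast markers were also higher in KO, by a median of 1.18. Slc7a11, the cystine transporter that feeds glutathione synthesis, had 0.38, at 0.37 in number 1 and 0.39 in number 2 (blocked limma adjusted p = 0.548). Alox12b, Dhodh and Alox5 had the lowest values, at -0.25, -0.22 and -0.20.

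After UVA, Gclm, the regulatory subunit of the rate-limiting enzyme of glutathione synthesis, was the 1 gene of that list called with the replicate block. The same fit called 0.0135% of all genes. It read 3788 and 5147 in WT sham arrays, 5988 and 7523 in WT UVA arrays, 4744 and 6437 in KO sham arrays and 6949 and 8730 in KO UVA arrays. Within each culture the UVA array was well above the sham array. Gclm was 0.55 higher after UVA (SE 0.043, 1.46-fold, blocked limma adjusted p = 0.0338, and 1 without the block). With 1 array left out the blocked adjusted p was 0.311 to 0.700. Slc7a11 read 1160 and 730 in WT sham arrays, 2463 and 2828 in WT UVA arrays, 1561 and 1087 in KO sham arrays and 3070 and 3258 in KO UVA arrays, so that all 4 UVA arrays were above all 4 sham arrays. Its difference was 1.40 with a limma adjusted p of 0.134 with the replicate block and 0.00788 with culture blocks. Culture blocks also called Gclc at 0.49 (0.00649), Gsr at 0.51 (0.00788), Hmox1 at 0.44 (0.00649) and Gclm (0.00150), 5 of 34 in all and 0 lower. The share over all genes was 0.437%.

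The other members of the ALDH and AKR families had no called gene in any comparison. Of 17 other aldehyde dehydrogenase genes 11 were higher and 6 lower in KO, with a median of 0.049. Aldh1a1, a retinal dehydrogenase, had the highest difference, 0.85 (0.18 in number 1 and 1.51 in number 2, blocked limma adjusted p = 0.510). It was followed by Aldh1a7 at 0.32 (0.066 in number 1 and 0.57 in number 2) and Aldh3b1 at 0.20 (0.29 and 0.11). Aldh1a3 (-0.23), Aldh1b1 (-0.18) and Aldh1l1 (-0.12) were lowest. In numbers 1 and 2 Aldh1a3 had 0.18 and -0.64, Aldh1b1 -0.072 and -0.29, and Aldh1l1 0.16 and -0.39. The fibroblast markers had median KO minus WT differences of -0.047 and 1.18 in the same numbers. Of 14 of 16 other aldo-keto reductase genes measured 8 were higher and 6 lower, with a median of 0.029. Kcnab1, a potassium channel subunit of this protein family, had 0.56, from -0.24 in number 1 and 1.36 in number 2. Akr1b10 (0.21) and Akr1c6 (0.20) came next, and Akr1e1 (-0.16), Akr1c12 (-0.16) and Akr1c19 (-0.12) were lowest. Akr1c6 read only 11 to 15, Akr1c12 22 to 30 and Akr1c19 16 to 23, against array medians of 110 to 115. At such values the differences of these 3 genes are steps of a few whole-number units. After UVA the medians were -0.058 and -0.039 for the families. No interaction of genotype and UVA was called in any of the lists.

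**Figure D5:**
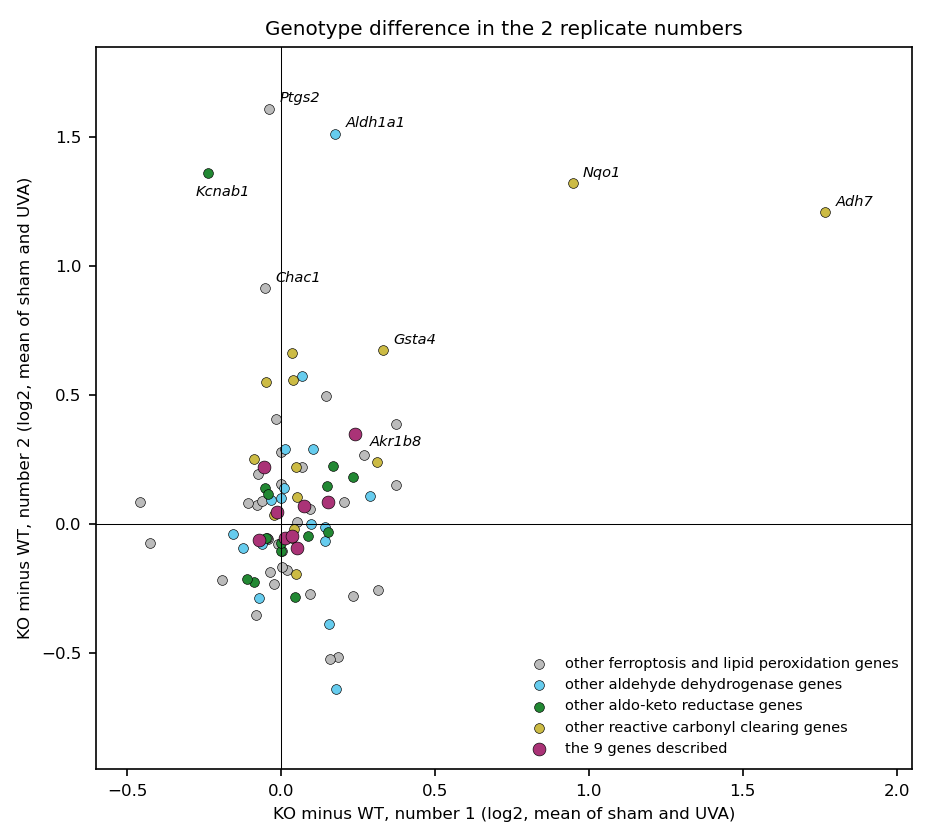
KO minus WT in number 2 against KO minus WT in number 1 (log2, mean of sham and UVA) for the 9 genes and 4 lists of related genes, 1 point per gene. Adh7 (1.77, 1.21) and Nqo1 (0.95, 1.32) are high in both numbers, Ptgs2, Kcnab1, Chac1 and Aldh1a1 mainly in number 2, and the 9 genes lie close to zero with Akr1b8 (0.24, 0.35) farthest out.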

How the data were processed

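The authors' deposited values were 1 intensity per probe set and array, made per the submitters' processing notes by robust multi-array averaging (RMA) in Affymetrix Expression Console 1.3.1.187. Build and annotation version: not given in the sources used here. The deposited intensities were linear whole numbers (7 to 22585); the planned tests assumed log2 values, and log2 was computed from them first. Of 41345 probe sets 23521 had a single gene symbol, 1814 several and 16010 none in the annotation used. For 1082 genes with several, the probe set of highest mean represented the gene.

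Groups and replicate numbers came from the sample titles. Differences were fitted with limma 3.58.1 in R 4.3.3 (4 group means, eBayes with trend, two-sided, Benjamini-Hochberg over all 22180 genes, threshold 0.05, 4 residual degrees of freedom), checked on simulated data. Numbers were treated as pairing the arrays because they are shared in the titles and same-numbered deviations correlated in all 6 pairs of groups (0.799 to 0.916). Blocked fits have 3 residual degrees of freedom, or 2 with culture blocks, and the blocked genotype test counts both arrays of a culture. The number of arrays limits the precision.

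The genes, lists and tests were chosen with earlier results of these data known. Named were all 9 genes, each called gene of the other lists, and their 3 highest and 3 lowest KO minus WT differences. The blocked leave-one-out fits were added after the data were seen. Promoters came from RefSeq (GRCm38.p6).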

Additional observations from a re-analysis of the deposited data

Results flagged for a closer look

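2 of the 9 genes had KO minus WT differences of opposite sign in the sham and the UVA pairs. For Aifm2 both sham pairs were above zero (0.032 and 0.17) and both UVA pairs below it (-0.059 and -0.085), an interaction of -0.18 on the log2 scale with a blocked interval of -0.58 to 0.23. The limma test of that interaction gave a blocked p of 0.341 and an adjusted p of 1. For Aldh3a1 both sham pairs were below zero (-0.050 and -0.15) and both UVA pairs above it (0.078 and 0.050), an interaction of 0.17 with a blocked interval of -0.18 to 0.51, a blocked limma p of 0.292 and an adjusted p of 1. All Aldh3a1 intensities lay between 53 and 59.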

How the results depend on the processing

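Over 18 genotype and UVA differences of the 9 genes and 25 alternative settings, 421 values were obtained. In 369 the direction and side of the threshold were as in the report, and in 52 a difference that was not called changed sign. Outside the settings that leave out an array, 131 of 133 values kept both, and the others were UVA minus sham of Aldh3a1 with arrays centred on their medians (0.0040) and of Aldh2 with all probe sets averaged (-0.036). Aldh3a1 dropped out where dim genes were left out. With 1 array left out, with or without the block, KO minus WT ranged from -0.10 to 0.057 for Acsl4, -0.057 to 0.044 for Lpcat3, -0.096 to 0.13 for Aifm2, -0.15 to 0.015 for Akr1a1, -0.056 to 0.018 for Aldh3a1, -0.0084 to 0.18 for Aldh3a2 0.10 to 0.49 for Akr1b8, 0.014 to 0.13 for Gpx4 and 0.049 to 0.19 for Aldh2. UVA minus sham ranged from -0.11 to 0.0034 for Gpx4, -0.0099 to 0.21 for Aifm2, -0.051 to 0.11 for Akr1a1, -0.26 to 0.13 for Akr1b8, -0.067 to 0.074 for Aldh2, -0.043 to 0.031 for Aldh3a1, -0.18 to -0.026 for Acsl4, -0.16 to -0.062 for Lpcat3 and -0.20 to -0.018 for Aldh3a2. Without the block such a fit leaves the numbers unequal between groups.

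Over all genes, 0 were called without the block. The replicate block called 7 genes for KO against WT averaged, 3 for UVA averaged, 1 for UVA in WT and 2 for UVA in KO. Culture blocks called 97 for UVA averaged, 12 in WT and 2 in KO. With the block and 1 array left out, 0 to 2 were called for UVA averaged (1 without KO UVA number 1, 2 without KO UVA number 2) and 0 for KO against WT. Averaging the arrays of each culture called 0 in that comparison, with 257 genes at an unadjusted p under 0.05 by limma and 736 with the replicate block. Adding 16 before log2 or fitting no variance trend changed no direction and no call of the 9 genes. Signal over background cannot be judged from these values, and dim probe sets such as that of Aldh3a1 are coarsened by rounding.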
